A study of Mus musculus with 4 samples.

Results

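The comparison described here sets 1 single-nucleus library from mouse primary motor cortex that had received an adeno-associated virus (AAV) for wild-type SIK3 against 1 library from uninjected cortex of mice sleeping ad libitum. SIK3 is salt-inducible kinase 3. A barcode was taken as a nucleus where 500 genes or more were detected and mitochondrial UMIs (unique molecular identifiers, 1 per captured transcript) made up less than 5%. This left 6729 nuclei with the vector and 8938 from ad lib sleep, 15667 of the 27085 nuclei in all 4 libraries of the series. The other libraries came from cortex given a vector for SIK3 without exon 13 and from sleep deprivation by gentle handling. All 4 groups were C57BL/6N mice. The vectors were AAV8-hSyn-FLAG-SIK3(WT) and AAV8-hSyn-FLAG-SIK3(Ex13del), in which the human synapsin promoter (hSyn) drives FLAG-tagged SIK3 and is used for expression in neurons. They were given locally into the cortex, and the series calls the mutated form a gain of function. The labels do not give sex, age, the number of animals in a library, the dose, the time from injection to collection or the hour of collection. The ad lib animals received no vector, so local administration, virus and SIK3 cannot be told apart. Each group is 1 library, so no difference between groups could be tested. All intervals below are 95% intervals that cover counting error only.

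SIK3 is a serine/threonine kinase of the AMPK family. It is activated by LKB1 and switched off by protein kinase A, which creates a docking site for 14-3-3 proteins. Its best known targets are the class IIa histone deacetylases and the CRTC coactivators of CREB, which it keeps out of the nucleus by phosphorylation. A splice mutation that removes exon 13 takes away the protein kinase A site and is known for raising sleep need in mice.

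Neurons were taken as nuclei with at least 3 UMIs summed over 4 genes, Slc17a7 and Sv2b of glutamatergic terminals and Gad1 and Gad2 of GABA synthesis. There were 4265 neurons in the ad lib library and 3540 in the vector library, with a median of 8246 and 9408 UMIs per nucleus. The remaining 4673 and 3189 nuclei, here called other nuclei, had medians of 2337 and 2356 UMIs. The share of neurons was 47.7% (exact binomial interval 46.7 to 48.8) after ad lib sleep and 52.6% (51.4 to 53.8) with the vector. When each nucleus was thinned to 1000 UMIs the shares were 2.73% (2.39 to 3.10) and 3.24% (2.81 to 3.71), with 614 and 488 shallower nuclei left out. The share with the vector was again the higher at equal depth, but the thinned intervals overlapped and the thinned gate passes few nuclei. The libraries held 54070503 and 47662932 UMIs in all. They shared 11 barcodes, as any pair of the 4 libraries shared between 9 and 14. Neurons with at least 4 times as many UMIs of one transmitter pair as of the other were called glutamatergic (3014 and 2503) or GABAergic (540 and 458). Other nuclei were gated by 6 marker genes a class, such as Slc1a3 and Aqp4 for astrocytes, Mbp and Mobp for oligodendrocytes, Csf1r and P2ry12 for microglia and Flt1 and Cldn5 for endothelium. A class needed at least 3 UMIs and 2 times those of the next class. These were 579 and 388 astrocyte-gated, 1040 and 702 oligodendrocyte-gated, 384 and 273 microglia-gated and 451 and 313 endothelial-gated nuclei in the ad lib and vector libraries.

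Levels are given as CPM, the UMIs of a gene as a share of all UMIs in the same sum of nuclei, scaled to 1000000. Across neurons both libraries were close. The filter asked for a mean level of 5 CPM and for 100 UMIs over both libraries. Of the 12345 genes that passed it, 8 (0.0648%) were more than 1.5-fold higher with the vector on the scale of CPM + 1, and 48 (0.389%) were more than 1.5-fold lower. The ratio was above 1 in 45.3% of these genes, the median log2 ratio was -0.02, and 89.9% of genes lay within 1.2-fold. Other nuclei, whose sums held fewer UMIs, had more genes past this fold. Of 13496 genes, 237 (1.76%) were more than 1.5-fold higher and 146 (1.08%) more than 1.5-fold lower, and the ratio was above 1 in 55.2%, with a median log2 ratio of 0.03. This balance depended on scaling and gate, with 190 higher and 188 lower under median-of-ratios scaling and 164 and 204 with a gate of 5 UMIs for neurons and fewer than 2 for other nuclei. In the ad lib and vector libraries the neuron sums held 38897656 and 37358000 UMIs, and those of other nuclei 14497572 and 9936745. With each nucleus thinned to a fixed depth, 49 genes were higher and 91 lower in neurons, and 193 and 162 in other nuclei. At a mean of at least 20 CPM the counts were 3 and 10, and 94 and 32. The part of depth in the larger counts of other nuclei was not tested. Of the 8 genes higher in neurons, 4 were also past 1.5-fold in other nuclei, namely the vector feature, Per2, Fkbp5 and mt-Nd6. Of the 48 lower genes, 43 were measured in other nuclei and 11 were past 1.5-fold there in the same direction. No gene of either set passed that fold in the opposite direction.

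**Figure D1:**
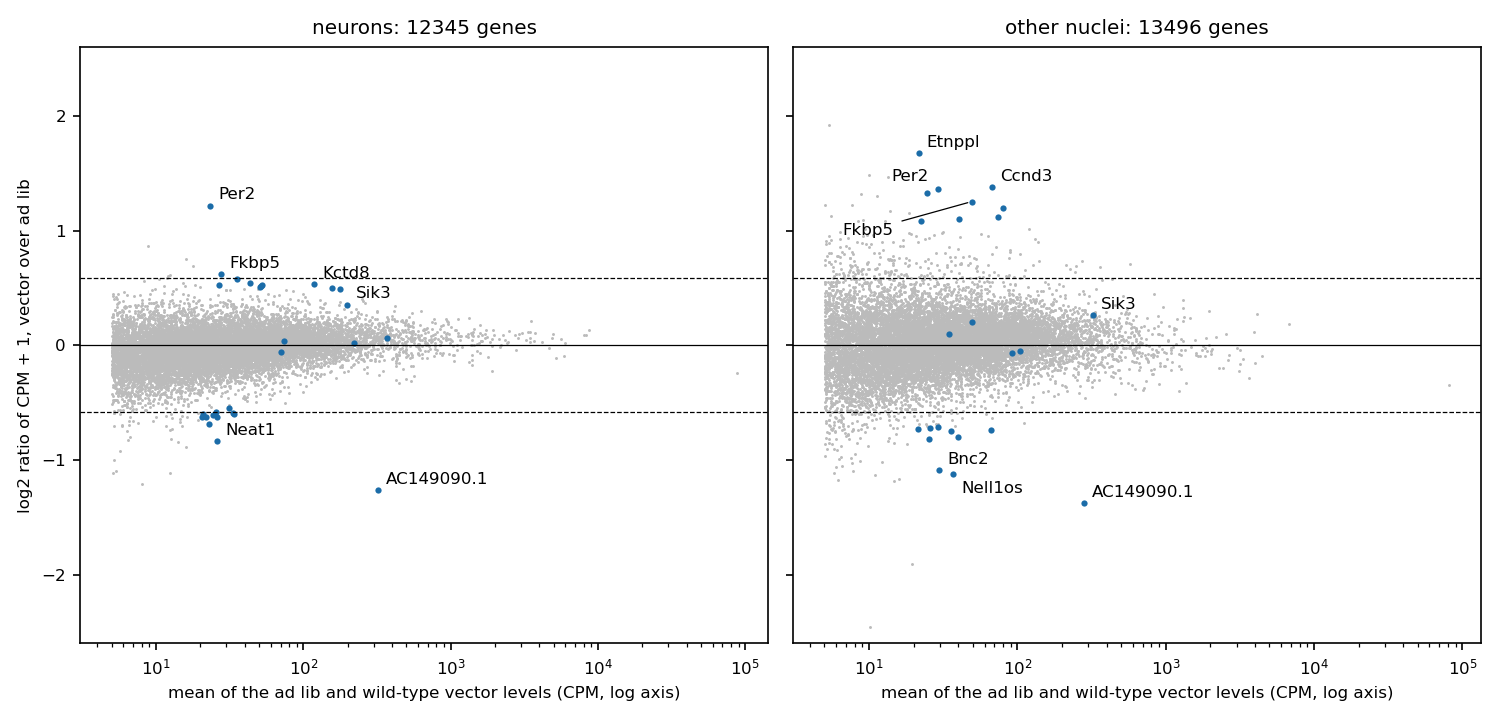
Each point is a gene, by its mean level in the ad lib and wild-type vector libraries (CPM, log axis) and its log2 ratio of CPM + 1, for neurons (left) and other nuclei (right); blue points are Sik3, the gate genes and the genes with the highest and lowest ratios, and dashed lines mark 1.5-fold. Per2 and Fkbp5 stand above the line and AC149090.1 below it in both panels; the vector feature, at a log2 ratio of 6.15 in neurons, lies outside the plotted range.

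The vector was detected through WPRE_pA, a feature added to the mouse gene table that carries the name of the vector's 3' end. It had 0 UMIs in the ad lib library and in the sleep deprivation library. In neurons the wild-type vector library reached 69.9 CPM (67.2 to 72.6) and the exon 13 deleted library 60.7 CPM. Set against a floor of 3 UMIs over the ad lib neurons, this was at least 906-fold higher. In other nuclei the feature stood at 77.2 CPM with the wild-type vector and 324 CPM with the exon 13 deleted vector. At least 1 vector UMI was found in 764 of 3540 neurons (21.6%). In glial and endothelial nuclei gated strictly, with 0 UMIs of the 4 neuron genes and at least 0.2% of UMIs on their own gate genes, 113 of 694 (16.3%) had one. Their median depth was 2009.5 UMIs, against 9408 in neurons. The level of the feature in these nuclei, 80.8 CPM, was no lower than the level in neurons, so a single vector UMI did not set neurons apart from glia. At least 3 vector UMIs were found in 4.29% of neurons and 0.576% of strictly gated nuclei. Within neurons, GABAergic nuclei carried 133 CPM and glutamatergic nuclei 54.6 CPM of the feature. The shares of nuclei with a vector UMI were closer, at 20.5% and 21.8%, and those with at least 3 were 3.71% (17 nuclei) and 3.96% (99 nuclei). The higher level in GABAergic nuclei thus came without a higher share of nuclei. Most vector UMIs of this class lay in its 17 nuclei with at least 3, so the level does not describe GABAergic nuclei at large. With the exon 13 deleted vector the same classes carried 48.7 and 49.7 CPM.

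The Sik3 gene itself (mm10 chr9:46012820-46224194, plus strand) was higher with the vector in neurons. Its level was 174 CPM in the ad lib library and 223 CPM in the wild-type vector library, a ratio of 1.28 (1.24 to 1.32). The exon 13 deleted vector library stood at 227 CPM and the sleep deprivation library, which had no vector, at 223 CPM. The ad lib library was thus the lowest of the 4 and the others lay close together. In glutamatergic nuclei Sik3 went from 158 to 205 CPM and in GABAergic nuclei from 225 to 276 CPM. In neurons of the vector library without a vector UMI it was at 209 CPM, with an interval of 1.16 to 1.24 for the ratio to ad lib. In strictly gated glial and endothelial nuclei it was at 536 and 529 CPM, a ratio of 0.99 (0.90 to 1.08). A level of Sik3 above ad lib was therefore seen in the neuron classes, with and without vector UMIs, and not in the strictly gated glia as a whole. Whether reads from the vector's SIK3 coding sequence were counted as Sik3 was not tested.

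**Figure D2:**
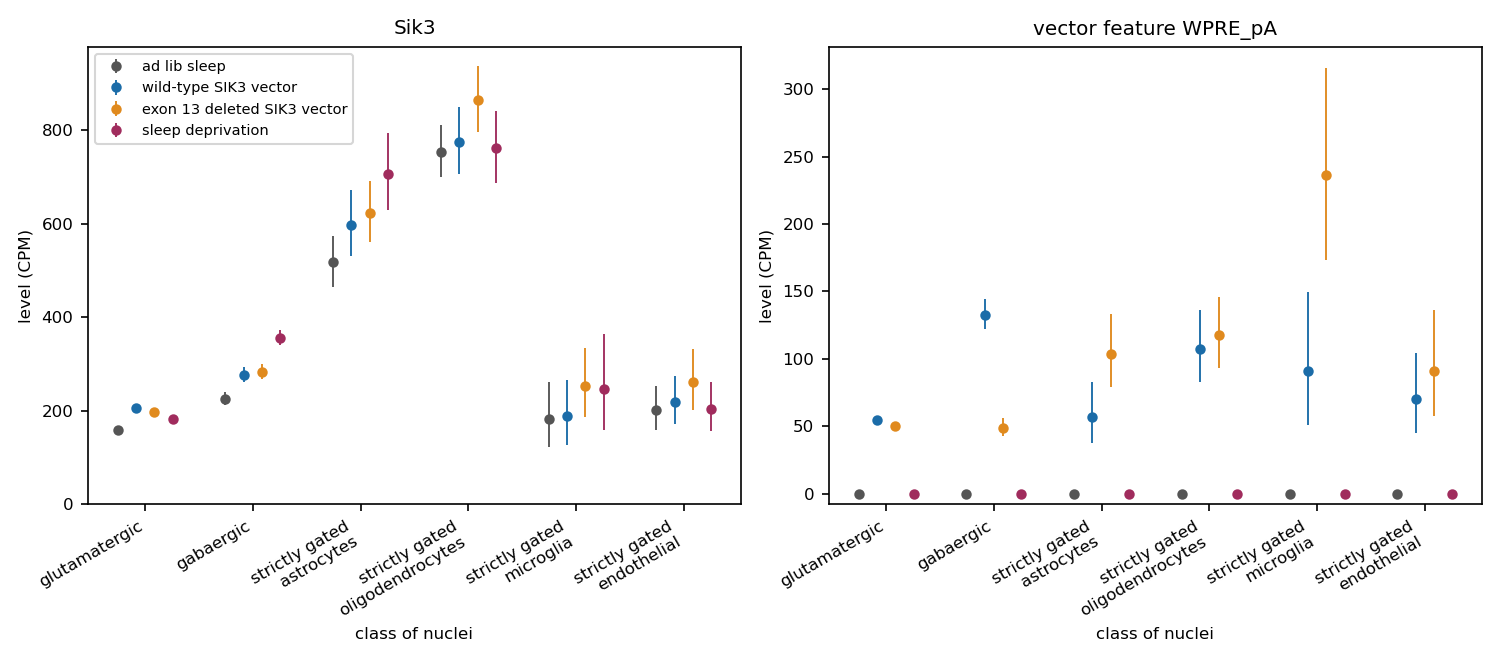
Levels (CPM) of Sik3 (left) and of the vector feature WPRE_pA (right) in 6 classes of nuclei and all 4 libraries, with exact Poisson 95% intervals. Sik3 is lowest after ad lib sleep in both neuron classes, and the vector feature is at 0 in both libraries without a vector and above 50 CPM in every glial class with the wild-type vector.

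Genes of the SIK3 pathway were close to their ad lib levels. Of the 24 members of that list, all passed the filter in neurons, 15 were higher, 9 were lower and none was past 1.5-fold, with a median log2 ratio of 0.02 against -0.02 over all genes. Sik2, another kinase of the family, had the largest difference on this list, from 83.5 to 114 CPM in neurons, a ratio of 1.36 (1.30 to 1.43). It stood at 104 CPM with the exon 13 deleted vector and 111 CPM after sleep deprivation. Sik1, the inducible member of the family, was low, with 5.48 CPM after ad lib sleep and 4.74 CPM with the vector. Of the class IIa deacetylases, Hdac4 stood at 120 and 119 CPM, Hdac5 at 34.2 and 33.6 CPM, Hdac7 at 79.0 and 79.8 CPM and Hdac9 at 425 and 424 CPM. These 4 substrates of SIK kinases thus stood close to their ad lib levels. Mef2c, a transcription factor that the deacetylases repress, was at 996 and 944 CPM, and its relative Mef2d at 62.8 and 70.1 CPM. The coactivators Crtc1 and Crtc3 stood at 54.2 and 54.5 CPM and at 56.5 and 56.2 CPM. Stk11, which encodes LKB1, was at 14.3 and 15.6 CPM. All of these are levels of RNA, and the phosphorylation through which the pathway acts was not measured. In other nuclei 18 of 24 members were higher, against 55.2% of all genes, with a median log2 ratio of 0.08. Sik2 again differed most there, from 78.9 to 104 CPM.

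Clock genes were mostly higher with the vector and had the highest median in neurons among the lists with at least 5 measured members. Only the negative medians of the myelin and the microglial homeostatic genes, -0.39 and -0.21, were larger in size among those lists. The clock is a loop in which CLOCK, NPAS2 and BMAL1 (Arntl) activate the Per and Cry genes, whose proteins then repress that activation, and it sets the phase of output factors such as Dbp, Tef and Hlf. Of 21 members of the list, 20 passed the filter in neurons, 16 were higher against 45.3% of all genes, and the median log2 ratio was 0.21. Per2 and Cry1, both repressors of the loop, were past 1.5-fold. Per2 (chr1:91415982-91459324, minus strand) had 13.7 CPM after ad lib sleep and 33.1 CPM under the wild-type vector, a ratio of 2.42 (2.19 to 2.69). It stood at 36.0 CPM with the exon 13 deleted vector and 21.4 CPM after sleep deprivation, so both vector libraries were above both libraries without a vector. Cry1 followed the same order, with 11.6 and 20.2 CPM after ad lib sleep and with the wild-type vector and 19.9 and 12.5 CPM in the exon 13 deleted and sleep deprivation libraries.

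Several further members of the repressor and output arms were higher by smaller amounts. Per1 stood at 24.9 CPM in ad lib sleep and 35.1 CPM under the vector, a ratio of 1.41 (1.30 to 1.53), and stood at 34.6 and 26.1 CPM in the exon 13 deleted and sleep deprivation libraries. Ciart, a repressor of CLOCK and BMAL1, was at 11.6 and 15.0 CPM, and at 14.6 and 6.35 CPM in the other two. Bhlhe41, which competes for the same DNA element, was at 13.9 and 19.2 CPM, and Hlf, an output factor, at 84.8 and 111 CPM. For each of these 4 genes the vector libraries again lay above the libraries without a vector. The activators were at similar levels in both libraries. Arntl was at 66.0 and 63.1 CPM, Clock at 113 and 113 CPM and Npas2 at 161 and 157 CPM. After sleep deprivation Arntl and Npas2 stood higher, at 81.4 and 189 CPM.

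The element through which CLOCK and BMAL1 act, the E-box CACGTG, was looked for in the 250 bases before each gene start (RefSeq, GRCm38.p6, either strand, the motif reading the same on both). It was present in 5 of the 18 clock genes that the promoter table holds, Per1, Cry1, Tef, Bhlhe41 and Ciart, and in 6.86% of 27025 genes. A match describes the letters in this window and says nothing of binding. Per2, Bhlhe40 and Csnk1d have no entry. In neurons these 5 genes lay higher in both vector libraries than in either library without a vector, Tef at 84.8 and 87.6 CPM against 72.8 and 72.1 CPM. Hlf, a gene without a match, shared this order, so it was not limited to genes with an E-box in the window. The windows of 3 are printed as examples, 2 repressors of the loop and Ciart, the 1 gene of the 5 with more than 1 match in a window; each runs 5′ to 3′ on the strand of the gene and ends at the base before its start, and capitals mark the E-box. The Per1 window (plus strand, the first of its listed starts) has 1 match 166 bases before the start and the window of its other listed start has 0, the Cry1 window (minus strand) 1 match 60 bases before it, and the Ciart window (minus strand) 3 matches, at 116, 58 and 44 bases.
Per1, chr11:69098699-69098948: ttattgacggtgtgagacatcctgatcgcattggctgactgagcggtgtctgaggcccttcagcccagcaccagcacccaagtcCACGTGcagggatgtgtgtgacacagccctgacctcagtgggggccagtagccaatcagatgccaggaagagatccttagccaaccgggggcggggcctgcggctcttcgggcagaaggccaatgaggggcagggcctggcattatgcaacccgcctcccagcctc
Cry1, chr10:85185055-85185304: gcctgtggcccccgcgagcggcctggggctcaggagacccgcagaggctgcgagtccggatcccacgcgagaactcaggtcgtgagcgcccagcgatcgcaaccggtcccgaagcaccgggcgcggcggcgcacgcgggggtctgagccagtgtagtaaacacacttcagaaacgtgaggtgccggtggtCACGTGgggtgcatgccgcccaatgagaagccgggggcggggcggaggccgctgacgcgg
Ciart, chr3:95882229-95882478: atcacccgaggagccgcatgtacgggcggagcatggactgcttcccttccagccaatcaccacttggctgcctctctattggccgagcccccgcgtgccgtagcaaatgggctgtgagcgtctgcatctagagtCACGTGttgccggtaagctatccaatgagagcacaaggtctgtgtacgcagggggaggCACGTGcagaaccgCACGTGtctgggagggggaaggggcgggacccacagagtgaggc

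In other nuclei 18 of 20 clock genes were higher, with a median log2 ratio of 0.25 against 55.2% above 1 and a median of 0.03 over all genes. In strictly gated glia and endothelial nuclei 10 of 17 were higher, with a median of 0.14, against 52.6% of 7664 genes. Per2 stood at 15.8 CPM in ad lib sleep and 42.2 CPM under the wild-type vector, a ratio of 2.67 (2.27 to 3.15), and at 40.0 and 22.9 CPM in the exon 13 deleted and sleep deprivation libraries. Per3 was at 50.4 and 71.4 CPM, Tef at 86.7 and 119 CPM and Cry1 at 15.0 and 23.0 CPM. Arntl was lower, at 48.1 and 36.6 CPM, a ratio of 0.76 (0.67 to 0.87), and stood at 37.8 and 50.8 CPM in the other two libraries. The order of Per2 and Arntl was thus opposite between vector and ad lib in these nuclei. In oligodendrocyte-gated nuclei Per2 went from 8.84 to 29.1 CPM (24 and 58 UMIs), Per1 from 26.5 to 56.6 CPM, Ciart from 5.16 to 20.5 CPM (14 and 41 UMIs) and Arntl from 33.9 to 18.5 CPM. In endothelial-gated nuclei Per2 went from 15.4 to 74.8 CPM (12 and 58 UMIs) and Per3 from 55.3 to 111 CPM. Astrocyte-gated nuclei had Per2 at 27.6 and 68.9 CPM and Npas2, an activator, at 139 and 253 CPM. Microglia-gated nuclei had Per2 at 15.0 and 18.3 CPM (21 and 16 UMIs) and Per3 at 33.5 and 67.3 CPM. Clock genes cycle over the day in most tissues. The hour of collection is not given for any library, so the hour and the vector cannot be told apart.

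**Figure D3:**
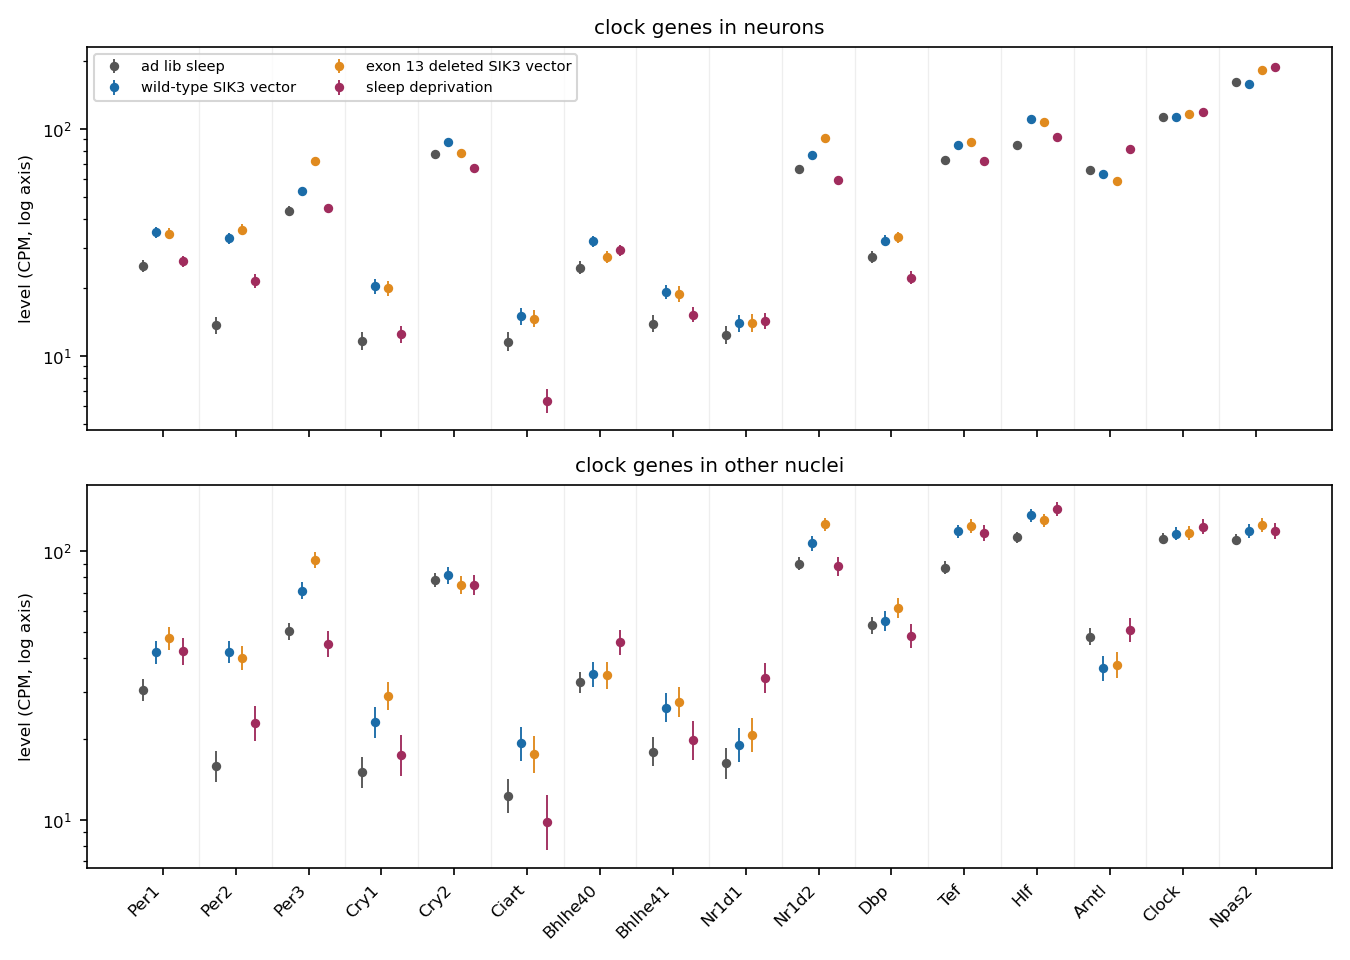
Levels (CPM, log axis) of 16 clock genes in neurons (top) and other nuclei (bottom) in all 4 libraries, with exact Poisson 95% intervals. In neurons Per2 and Cry1 lie at 33.1 and 20.2 CPM with the wild-type vector and at 13.7 and 11.6 CPM after ad lib sleep; Clock stands at 113 CPM in both.

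Genes that glucocorticoids induce were higher with the vector, more so in other nuclei than in neurons. These genes respond to corticosterone, the adrenal steroid that in mice follows both the time of day and stress, through the glucocorticoid receptor (Nr3c1) and the mineralocorticoid receptor (Nr3c2). Of 23 members, 19 passed the filter in other nuclei. All 19 were above their ad lib level, against 55.2% of all genes in other nuclei, and the median log2 ratio was 0.45. Past 1.5-fold were 6 of them, against 1.76% of all genes. Fkbp5, a co-chaperone of the glucocorticoid receptor, stood at 28.7 CPM in ad lib sleep and 69.7 CPM under the vector, a ratio of 2.43 (2.15 to 2.75). It stood at 85.4 CPM with the exon 13 deleted vector and 106 CPM after sleep deprivation, so ad lib sleep was the lowest and sleep deprivation the highest of the 4. Zbtb16, a transcription factor, had the order of 95.5, 179, 207 and 214 CPM over ad lib, wild-type vector, exon 13 deleted vector and sleep deprivation. Tsc22d3, which encodes the anti-inflammatory protein GILZ, had 41.6, 65.5, 68.6 and 96.4 CPM in that order. Nfkbia, the inhibitor of NF-kB, had 27.6, 43.9, 45.1 and 68.9 CPM. These 4 genes shared the order of the libraries. Per1 is on this list as well as on the list of clock genes. The receptors themselves were nearer to their ad lib levels, Nr3c1 with 139 and 161 CPM and Nr3c2 with 205 and 216 CPM.

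In neurons 13 of 15 members that passed the filter were higher, against 45.3% of all genes, and the median log2 ratio was 0.18. Fkbp5 alone was past 1.5-fold, with 21.5 CPM after ad lib sleep and 33.5 CPM with the vector, a ratio of 1.56 (1.43 to 1.71). It stood at 37.5 and 53.6 CPM in the exon 13 deleted and sleep deprivation libraries. Zbtb16 was at 121 and 157 CPM and Nr3c1 at 131 and 146 CPM. Sgk1, a kinase named for its induction by serum and glucocorticoids, was at 96.0 and 99.3 CPM. The difference in Fkbp5 was seen in glutamatergic nuclei, at 19.4 and 32.3 CPM, while GABAergic nuclei had 27.1 and 29.3 CPM with a ratio interval of 0.84 to 1.40. By class, oligodendrocyte-gated nuclei had the most members past 1.5-fold, 7 of 14 measured, where 1.63% of 7876 genes were past it, and all 14 were above ad lib (52.3% of genes there were). In astrocyte-, microglia- and endothelial-gated nuclei 2 of 11, 2 of 8 and 2 of 8 were past it, against 2.27%, 11.1% and 5.82% of all genes. In the oligodendrocyte-gated nuclei Fkbp5 went from 23.2 to 83.7 CPM, a ratio of 3.61 (2.68 to 4.90). Zbtb16 went there from 63.0 to 233 CPM and Sgk1 from 77.4 to 186 CPM. Astrocyte-gated nuclei had 9 of 11 members above ad lib (51% of 5851 genes), with Zbtb16 at 55.8 and 167 CPM. Endothelial-gated nuclei had 7 of 8 (54.6% of 3691 genes), with Zbtb16 at 79.8 and 371 CPM, a ratio of 4.66 (3.53 to 6.23). Microglia-gated nuclei had 5 of 8 (60.2% of 4884 genes), with Fkbp5 at 57.7 and 160 CPM and Zbtb16 at 119 and 117 CPM. In strictly gated oligodendrocytes the Fkbp5 and Sgk1 ratios were 5.10 (2.96 to 9.21) and 3.78 (2.78 to 5.18). The summed level of 6 neuronal genes kept to check the gates was 2345 and 2059.5 CPM in these nuclei, against 4543 and 4835 CPM by the wider gate.

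**Figure D4:**
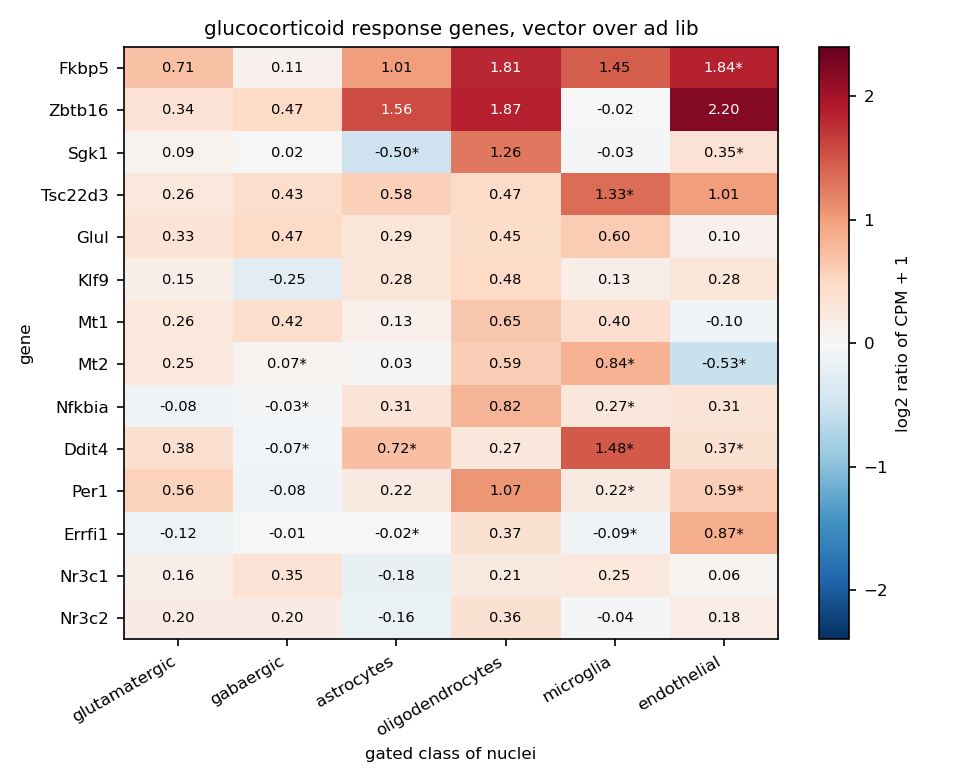
The log2 ratio of CPM + 1, wild-type vector over ad lib, of 14 glucocorticoid response genes (rows) in 6 gated classes of nuclei (columns); an asterisk marks fewer than 100 UMIs in both libraries together. Zbtb16 reaches 2.20 in endothelial-gated and 1.87 in oligodendrocyte-gated nuclei and is -0.02 in microglia-gated nuclei.

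Genes that neurons switch on within minutes of firing were mostly below their ad lib level with the vector, at a median that depended on the neurons and genes kept. Of 23 rapid immediate early genes, 17 passed the filter in neurons. Of these, 3 were higher, against 45.3% of all genes, and 14 lower, and the median log2 ratio was -0.18. It was 0.02 in the 1204 and 842 neurons with fewer than 3 UMIs of striatal markers, -0.16 when Pde10a was left out of those markers, and -0.02 when only members averaging 20 CPM or more were counted. Npas4, a transcription factor induced by calcium entry, stood at 18.4 CPM in ad lib sleep and 9.82 CPM under the wild-type vector, a ratio of 0.53 (0.47 to 0.61). It stood at 17.6 CPM with the exon 13 deleted vector and 12.9 CPM after sleep deprivation. The wild-type vector library was the lowest of the 4. Btg2, an antiproliferative gene of the same response, was at 18.9 and 11.2 CPM, and at 13.6 and 7.17 CPM in the other two. Fos, the gene most used to mark active neurons, was at 6.76 and 4.90 CPM, a ratio of 0.72 (0.60 to 0.88), and Jun, its partner in AP-1, at 13.6 and 9.74 CPM. Egr1 and Nr4a1, also transcription factors of this group, stood at 42.8 and 43.2 CPM and at 55.4 and 55.2 CPM. Arc, which acts at synapses to remove AMPA receptors, went the other way, with 19.4 and 23.6 CPM, and 28.5 and 40.9 CPM in the exon 13 deleted and sleep deprivation libraries.

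Delayed activity genes were split, with 7 of 17 higher in neurons and a median log2 ratio of -0.03. Both were near the values over all genes, 45.3% higher and a median of -0.02. Homer1, a scaffold of the postsynaptic density with a short form made after activity, stood at 256 CPM in ad lib sleep and 353 CPM under the vector, a ratio of 1.38 (1.34 to 1.41). The exon 13 deleted and sleep deprivation libraries had 329 and 327 CPM, so ad lib sleep was the lowest. Gene-level counts do not separate the short from the long form. Bdnf, a growth factor of synaptic plasticity, stood at 20.5 CPM with the wild-type vector, a ratio to ad lib of 1.02 (0.93 to 1.13), and at 35.6 and 25.8 CPM in the other two. Nptx2, a pentraxin that clusters AMPA receptors, was at 10.6 and 7.17 CPM, and at 22.5 CPM with the exon 13 deleted vector. Penk, the enkephalin precursor, was at 19.5 and 13.2 CPM, and at 38.6 and 34.9 CPM in the exon 13 deleted and sleep deprivation libraries. For Nptx2 and Penk the wild-type vector library was the lowest of the 4. Penk is also on the list of striatal projection neuron markers, of which 4 of 12 were higher in neurons.

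Synaptic genes were shifted by small amounts in neurons. Of 43 genes of the glutamatergic postsynapse, 42 passed the filter, 33 were higher against 45.3% of all genes, and none was past 1.5-fold, with a median log2 ratio of 0.11. Homer1 was the largest, and Shank1, a master scaffold of the postsynaptic density, went from 121 to 155 CPM, with 152 and 184 CPM in the exon 13 deleted and sleep deprivation libraries. Dlg2, the scaffold PSD-93, was at 4782 and 5121 CPM. Nlgn1, a postsynaptic adhesion protein, was at 2813 and 3010 CPM. Grm2, a metabotropic glutamate receptor, was lower, at 12.4 and 9.26 CPM. Of 39 genes of presynaptic release, 38 passed and 30 were higher, with a median of 0.09. Cplx1 and Cplx2, the complexins that clamp and promote fusion, went from 44.0 to 53.3 CPM and from 75.5 to 90.5 CPM. In other nuclei 18 of 43 postsynaptic and 24 of 38 presynaptic genes were higher, against 55.2% of all genes there.

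Channels were nearer to the median of all genes. Of 31 potassium channel genes, 20 were higher in neurons, where 45.3% of all genes were, with a median log2 ratio of 0.04. Kcnip4, a subunit of A-type channels, was at 7767 and 8257 CPM and Kcnab2, a beta subunit, at 46.6 and 57.1 CPM. Of 25 calcium, sodium and HCN channel genes, 13 were higher, with a median of 0.00. Cacnb2, a calcium channel beta subunit, was at 367 and 432 CPM, and stood at 576 and 582 CPM in the exon 13 deleted and sleep deprivation libraries. Of 17 genes of GABA-A receptors and the inhibitory postsynapse, 13 were higher with a median of 0.03. Gabrd, the subunit of receptors outside synapses, was at 37.5 and 32.8 CPM. Of the protein kinase A genes, cyclases and phosphodiesterases, 14 of 25 were higher with a median of 0.02. Adcy9, a cyclase, was at 150 and 176 CPM.

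Cholesterol synthesis genes were below ad lib in both sums. In neurons 19 of 21 were lower and 2 higher (median log2 ratio -0.15), and in other nuclei 19 of 23 were lower and 4 higher, with a median of -0.10. Of all genes 45.3% were higher in neurons (median -0.02) and 55.2% in other nuclei (median 0.03). None was past 1.5-fold. Hmgcs1, an early enzyme of the pathway, was at 45.8 and 39.7 CPM in neurons, and stood at 38.4 and 33.7 CPM in the exon 13 deleted and sleep deprivation libraries. Ad lib sleep was the highest of the 4 libraries. Nuclear-encoded genes of oxidative phosphorylation were also mostly lower in neurons, 27 of 35, by a median of -0.05 on the log2 scale. Mitochondrially encoded transcripts were higher in 8 of 13, and mt-Nd6 was at 13.3 and 22.1 CPM.

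Genes of innate immunity were above ad lib in other nuclei. Of 26 interferon response genes, 14 passed the filter there, with a median log2 ratio of 0.24. Of these, 12 were higher, against 55.2% of all genes in other nuclei, and 2 were past 1.5-fold, against 1.76%. Trim30a and Parp14, both induced by interferon, were at 7.11 and 12.3 CPM and at 6.69 and 11.2 CPM. The exon 13 deleted vector library stood higher for both, at 15.9 and 16.9 CPM, and the sleep deprivation library at 8.44 and 9.94 CPM. The vector libraries were thus above the libraries without a vector. Of the MHC class I, antigen processing and complement genes, all 9 measured of 20 were higher, with a median of 0.42. B2m, the light chain of MHC class I, was at 27.0 and 38.9 CPM, and at 45.3 and 31.6 CPM in the exon 13 deleted and sleep deprivation libraries. Of the cytokine, chemokine and NF-kB genes, 12 of 13 were higher, with a median of 0.32. Il1r1, the receptor of interleukin-1, was at 6.69 and 20.2 CPM, and stood at 9.24 and 21.2 CPM in the other two, so it was also high after sleep deprivation. In endothelial-gated nuclei Il1r1 went from 50.2 to 206 CPM, a ratio of 4.11 (2.88 to 6.00), and in strictly gated endothelial nuclei from 40.8 to 202 CPM. In neurons 3 of 5 interferon response genes and 0 of 6 MHC and complement genes were higher, against 45.3% of all genes there. The direction was not shared by all classes of other nuclei. MHC and complement genes were higher in 1 of 4 in oligodendrocyte-gated nuclei (median -0.12). They were higher in 3 of 4 in endothelial-gated, 5 of 5 in microglia-gated and 7 of 7 in strictly gated glial and endothelial nuclei.

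Most measured markers of the immune, vascular and astrocytic cells were also above ad lib in other nuclei. The summed level of 6 microglial genes kept to check the gates was 175 CPM in other nuclei after ad lib sleep and 252 CPM with the vector, and stood at 303 and 233 CPM in the exon 13 deleted and sleep deprivation libraries. Of 12 measured homeostatic microglial genes 9 were higher, against 55.2% of all genes, among them Selplg, a selectin ligand, with a ratio of 1.70 (1.43 to 2.02). The summed level of the list was not higher, at 1353 and 1345 CPM. In strictly gated glia and endothelial nuclei 5 of 10 measured members were higher. Of 18 markers of blood-derived leukocytes 12 were under the filter. Of the remaining 6, 4 were higher and 3 were past 1.5-fold, against 55.2% and 1.76% of all genes. The summed level of the 18 was 76.6 and 97.5 CPM, with 123 and 76.8 CPM in the exon 13 deleted and sleep deprivation libraries. Ptprc, the pan-leukocyte antigen CD45, was at 17.5 and 27.2 CPM, and F13a1 and Mrc1, both of border macrophages, were at 6.90 and 14.4 CPM and at 6.35 and 12.6 CPM. Border macrophage genes were thus highest with the wild-type vector, while Ptprc was highest with the exon 13 deleted vector, at 44.3 CPM. Of the homeostatic genes of astrocytes 15 of 16 were higher, with Mertk, a receptor for engulfment of debris, at 191 and 308 CPM. Sleep deprivation stood above both, at 446 CPM. The part of these cells in the immune lists was not tested.

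Lists tied to injury and stress were mixed. Of all genes 45.3% were higher in neurons, 55.2% in other nuclei and 52.6% in strictly gated glia and endothelial nuclei. The shares were 51%, 54.6% and 52.3% in astrocyte-, endothelial- and oligodendrocyte-gated nuclei. The p53 and DNA damage list had 9 of 13 members higher in neurons and 10 of 13 in other nuclei, with medians of 0.08 and 0.11. In strictly gated glia and endothelial nuclei 4 of 8 were higher and the median was -0.09. Its member Trp53inp1 was at 16.2 and 23.2 CPM in other nuclei, and at 29.4 and 23.8 CPM in the exon 13 deleted and sleep deprivation libraries. Axon injury and regeneration genes were higher in 8 of 18 in neurons. Of the endoplasmic reticulum chaperones, 10 of 20 were higher in neurons, and of the cytosolic heat shock proteins 12 of 17. Hsph1, a co-chaperone of HSP70, was at 43.3 and 55.2 CPM. In other nuclei 16 of 19 heat shock genes were higher with a median of 0.18, and in strictly gated nuclei 7 of 15 with a median of -0.01. Reactive astrocyte genes were higher in 6 of 9 in other nuclei with a median of 0.28, which was -0.01 after thinning, among them Cp, the copper enzyme ceruloplasmin, at 27.9 and 48.4 CPM. Extracellular matrix and scar genes were higher in 15 of 21 there with a median of 0.20, among them Fn1, fibronectin, at 28.5 and 47.0 CPM. Cytosolic ribosomal protein genes were all higher in other nuclei, 34 of 34, by a median of 0.15 on the log2 scale and none past 1.5-fold, and 18 of 34 in neurons. The direction was not shared by the classes. In strictly gated nuclei 11 of 34 were higher (median -0.05), in astrocyte-gated nuclei 11 and in endothelial-gated nuclei 3 (median -0.27), while in oligodendrocyte-gated nuclei 29 of 34 were.

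**Figure D5:**
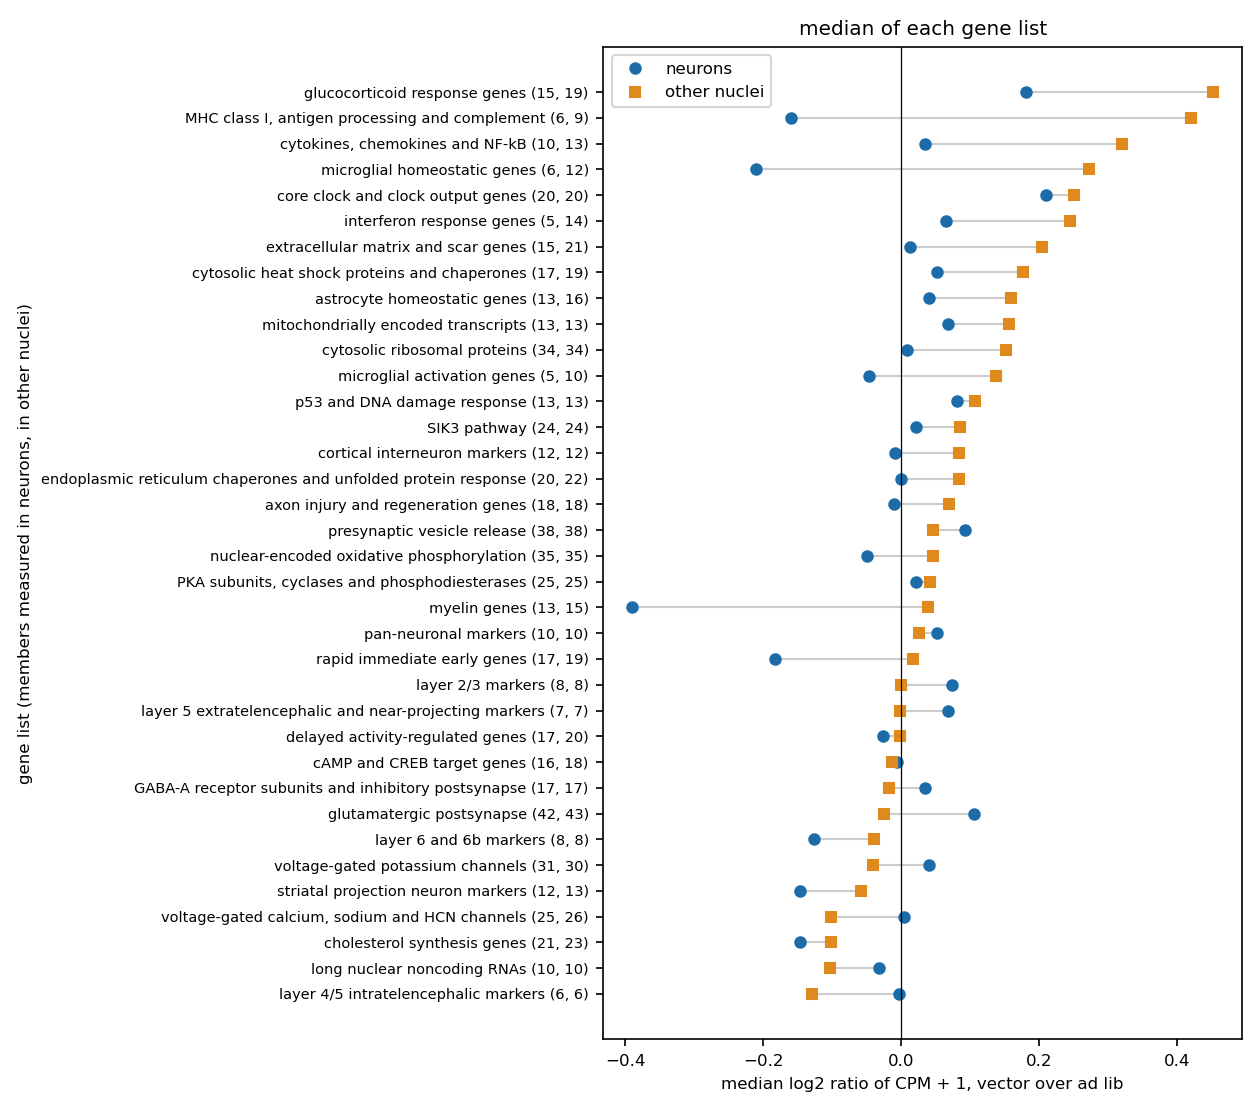
The median log2 ratio of CPM + 1, wild-type vector over ad lib, of each gene list with at least 5 measured members, in neurons (circles) and other nuclei (squares). Clock genes lie above 0.2 in both sums, glucocorticoid genes at 0.18 and 0.45, and myelin genes at -0.39 in neurons against 0.04 in other nuclei.

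Beyond the lists, the genes with the highest ratios in neurons at a mean of at least 20 CPM were, after WPRE_pA, Per2 and Fkbp5, the noncoding genes Gm49171, Gm48099 and Gm48530 and the coding genes Kctd8, Ccdc7b, Nuak1, Zfhx4, Spred1 and Spred2. Kctd8, an auxiliary subunit of GABA-B receptors, stood at 97.0 CPM in ad lib sleep and 141 CPM under the vector, a ratio of 1.45 (1.39 to 1.51), and at 161 and 120 CPM in the exon 13 deleted and sleep deprivation libraries. In glutamatergic nuclei alone it went from 58.0 to 103 CPM. Spred1 and Spred2, inhibitors of the Ras-MAPK cascade, were at 129 and 182 CPM and at 147 and 208 CPM. Both stood as high after sleep deprivation, at 182 and 200.2 CPM. Nuak1, like SIK3 a kinase of the AMPK family activated by LKB1, was at 42.3 and 60.8 CPM, with 47.7 and 58.2 CPM in the other two. Zfhx4, a zinc finger homeobox gene, was at 41.5 and 59.6 CPM. Glutamatergic nuclei shared Kctd8, Nuak1 and Zfhx4 among their leading genes and added Sik2, from 78.6 to 114 CPM, and Ccnd2, the cell cycle gene cyclin D2, from 57.4 to 84.8 CPM. In GABAergic nuclei Il1rapl2, a synaptic adhesion protein, went from 458 to 676 CPM, with 648 and 783 CPM in the other two libraries, so ad lib sleep was the lowest.

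The lowest ratio in neurons belonged to AC149090.1, a coding gene model on the unplaced scaffold JH584304.1 (52190-59690, minus strand). Its level was 454 CPM in the ad lib library and 188 CPM in the wild-type vector library, a ratio of 0.41 (0.40 to 0.43), and at 364 and 537 CPM in the exon 13 deleted and sleep deprivation libraries. The wild-type vector library was the lowest in every class gated by marker UMIs alone. It was at 443 and 130 CPM in GABAergic nuclei, 268 and 87.1 CPM in astrocyte-gated nuclei and 324 and 111 CPM in oligodendrocyte-gated nuclei. In strictly gated microglia, with 82 and 68 UMIs, the ratio was 0.82 (0.59 to 1.15). The files give no sequence for this scaffold gene, and reads it shares with near-identical genes would be counted as the authors' software assigned them. Neat1, the noncoding scaffold of paraspeckles, was at 33.8 and 18.4 CPM in neurons and at 256 and 243 CPM in other nuclei.

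The 48 genes lower in neurons included genes of oligodendrocytes. Opalin, Mog, Mag and Aspa, all of myelinating cells, were past 1.5-fold, and so were Sox10, a transcription factor of that lineage, and Trf, transferrin. These were singled out after their values were seen. Of 13 measured myelin genes 12 were lower and 1 higher in neurons, where 45.3% of all genes were higher, at a median log2 ratio of -0.39. The median was 0.27 in neurons with fewer than 3 UMIs of striatal markers, -0.35 when Pde10a was left out of those markers, and -0.10 after thinning. In other nuclei 11 of 15 were higher with a median of 0.04, and in strictly gated glia and endothelial nuclei 3 of 15 with a median of -0.17. Of all genes 55.2% and 52.6% were higher in these nuclei. Opalin was at 7.25 and 3.13 CPM, Mog at 16.2 and 9.34 CPM and Aspa at 14.6 and 8.59 CPM in neurons. The summed level of 6 myelin genes kept to check the gates was 112 CPM in ad lib neurons and 79.4 CPM with the vector, and 104 CPM in each of the other two libraries. Of 6 microglial homeostatic genes none was higher in neurons, where the median log2 ratio of that list was -0.21. The part of glial RNA in nuclei gated as neurons in these differences was not tested.

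In other nuclei the highest ratios after the vector feature belonged to Etnppl, Ccnd3, Per2, Zfp366, Fkbp5, Atp10a, Tbc1d4 and Abca9, among others. Etnppl, an astrocyte enzyme that breaks down phosphoethanolamine, stood at 9.73 CPM in ad lib sleep and 33.3 CPM under the vector, and at 27.6 and 34.1 CPM in the exon 13 deleted and sleep deprivation libraries. Ccnd3, cyclin D3, was at 36.7 and 97.1 CPM, and at 91.8 and 155 CPM in the other two. Tbc1d4, a regulator of glucose transporter traffic, was at 46.2 and 102 CPM, and at 88.9 and 130 CPM. Atp10a, a lipid flippase, was at 47.9 and 111 CPM, and at 93.8 and 146 CPM. For each of these 4 genes ad lib sleep was the lowest of the 4 libraries, and the 3 comparisons with ad lib sleep share that 1 library. The lowest ratios belonged, after AC149090.1, to Nell1os, Bnc2, Rad51ap2, Gm26911, Tmem9, Gm43948, Abi3bp, Gm29530 and 5031415H12Rik. Nell1os, a transcript antisense to Nell1, was at 50.8 and 22.7 CPM, and at 25.4 and 11.8 CPM in the other two libraries. The sources used here do not state how strand was used in counting. Whether Nell1os, Gm26911, Gm43948, Gm29530 and 5031415H12Rik share reads with genes they overlap was not tested. Bnc2, a zinc finger gene of fibroblasts, was at 40.7 and 18.6 CPM, and at 62.0 and 52.7 CPM in the other two, so the wild-type vector library was the lowest.

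Astrocyte-gated nuclei had Etnppl at 58.2 CPM after ad lib sleep and 211 CPM with the vector, a ratio of 3.63 (2.87 to 4.62), and at 159 and 156 CPM in the exon 13 deleted and sleep deprivation libraries. In strictly gated astrocytes it was at 69.6 and 189 CPM. Zbtb16 and Synpo2, an actin-binding protein, also led, Synpo2 with 42.3 and 104 CPM. The genes with the lowest ratios were Slc47a1 at 125 and 18.2 CPM, Bnc2 at 160 and 39.6 CPM and Mgp at 177 and 54.6 CPM. All are genes of meningeal and vascular fibroblasts and mural cells, and Slc47a1 is on the list of those cells' markers. Of the 11 measured markers on that list 10 were higher in other nuclei, against 55.2% of all genes. Slc47a1, at 31.4 and 7.65 CPM, was the 1 that was lower. The list's summed level was 332 CPM after ad lib sleep and 402 CPM with the vector. The share of such cells in these differences was not tested.

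Oligodendrocyte-gated nuclei were led by Zbtb16, Fkbp5, Htra1 and Sgk1. Htra1, a secreted serine protease, stood at 42.8 CPM in ad lib sleep and 105 CPM under the vector, and at 98.3 and 176 CPM in the exon 13 deleted and sleep deprivation libraries. Il1rapl2 was lower there, at 126 and 54.1 CPM, opposite to its direction in GABAergic nuclei. Summed over the 6 neuronal check genes, these nuclei carried 4543 and 4835 CPM, against 10974 and 11418 CPM in neurons, so neuronal RNA was present at a similar level in both libraries.

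Microglia-gated nuclei differed more in their makeup. Their neuronal check genes summed to 8096 CPM after ad lib sleep and 6561 CPM with the vector, and their own check genes to 884 and 1810 CPM. Ccnd3 was at 79.8 and 392 CPM, a ratio of 4.92 (3.96 to 6.14). In strictly gated microglia, of which there were 111 and 86, the neuronal sums were 2180 and 2204 CPM and Ccnd3 was at 304 and 890 CPM, a ratio of 2.92 (2.11 to 4.11). It stood at 756 and 1289 CPM in the exon 13 deleted and sleep deprivation libraries, so ad lib sleep was again the lowest. Fyb, one of the check genes, and Lcp1, both genes of immune cells, had ratios of 2.99 and 3.24 by the wider gate and of 1.61 (1.19 to 2.21) and 1.70 (0.97 to 3.07) by the strict gate. Cdh9 and Tafa1, both neuronal genes, were at 223 and 53.6 CPM and at 521 and 164 CPM by the wider gate. The part of neuronal RNA in the microglia-gated values was not tested beyond this gate.

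Endothelial-gated nuclei carried less neuronal RNA, 2349 and 1814 CPM over the same check genes. Zbtb16, Il1r1 and Lama2 were among the leading genes. Lama2, a laminin chain, stood at 60.5 CPM in ad lib sleep and 193 CPM under the vector, and at 91.5 and 139 CPM in the exon 13 deleted and sleep deprivation libraries. By the strict gate Lama2 was at 51.7 and 196 CPM, so the difference was about as large. The lowest ratios belonged to the neuronal genes Cdh18, Mgat4c, Hs3st4, Frmpd4 and Nrg3, with Nrg3 at 601 and 226 CPM.

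Markers of neuron types were compared to describe which neurons each library sampled. Of all genes in neurons 45.3% were higher, with a median log2 ratio of -0.02. Layer 2/3 markers were higher in 6 of 8 with a median log2 ratio of 0.07, among them Cux2 at 114 and 124 CPM. Layer 6 markers were lower in 7 of 8 with a median of -0.13, among them Tle4 at 203 and 172 CPM and Foxp2 at 174 and 167 CPM. Markers of striatal projection neurons were higher in 4 of 12 and lower in 8, with a median of -0.15. Their summed level was 2035 CPM after ad lib sleep, 2116 CPM with the wild-type vector, 2677 CPM with the exon 13 deleted vector and 2672 CPM after sleep deprivation. Pde10a, a phosphodiesterase that cortical neurons hold too, made up 830 and 936 CPM of the sums of this comparison. Drd2, the D2 dopamine receptor of striatal neurons, was at 11.9 and 8.70 CPM, and at 26.1 and 16.5 CPM in the other two, so both libraries of this comparison held less of it than the others. Interneuron markers were higher in 4 of 12 with a median of -0.01, with Vip at 33.4 and 28.2 CPM and Reln at 96.7 and 105 CPM. The 4 genes of the neuron gate were within 5% of their ad lib level, Slc17a7 at 219 and 221 CPM, Sv2b at 364 and 381 CPM, Gad1 at 73.3 and 75.4 CPM and Gad2 at 72.2 and 69.2 CPM. Y-linked transcripts were present in both libraries, Uty at 110 and 116 CPM and Eif2s3y at 66.9 and 56.4 CPM in neurons. Malat1, the nuclear RNA that takes the largest part of the counts, was at 94960 and 80030 CPM in neurons.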

How the data were processed

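Nuclei of primary motor cortex were captured with a 10x Chromium 3' (v3.1) kit, per the labels' protocols. The authors deposited raw UMI counts, whole numbers for every gene in every barcode. The submitters' processing notes name Cell Ranger 6.1.2 and the mm10 build. The annotation version and the treatment of intronic reads are not given in the sources used here. How doublets were treated is likewise not given, and no caller was run here; the barcodes of highest depth were left out as an alternative. Barcodes with at least 500 genes and under 5% mitochondrial UMIs were kept, and counts were summed per library and class with Python 3.11.15, numpy 2.4.6, scipy 1.17.1 and pandas 2.3.3. Total UMIs of the libraries ran from 43655557 to 54070503. Levels are CPM with exact Poisson 95% intervals, and ratios have exact conditional intervals; both cover counting error only. With 1 library per group there is no test. The fold of 1.5 was applied on the scale of CPM + 1 to genes whose mean level reached 5 CPM and whose UMIs reached 100. The step was also run on simulated counts, with changes larger than 1.5-fold and only in genes of at least 20 CPM. That run cannot show how the call behaves near 1.5-fold or 5 CPM.

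Smaller classes were gated by UMIs of marker genes, without clustering. Strict gates asked for 0 UMIs of the neuron genes and 0.2% of UMIs on the class's own genes. Named genes were Sik3, the vector feature and the gate genes, the 12 highest and 12 lowest ratios in neurons and 10 of each in other nuclei (mean of at least 20 CPM), 5 of each in classes of at least 100 nuclei in both libraries (at least 50 CPM), and for each list the 3 genes of highest level and the 3 of largest ratio. Of these, the text gives those with values in the sentences, and members outside the rule only within a list's description. The members and lists were chosen with earlier results of these data known. Gene coordinates and types are from the mm10 annotation, and promoters from RefSeq on GRCm38.p6. Some genes that the rule names are not reported here.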

Additional observations from a re-analysis of the deposited data

How the results depend on the processing

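No paired analysis was possible because each group is 1 library. The libraries are not replicated, so a left-out library was not an option either, and the settings below show only how the counts of genes past 1.5-fold and single ratios move. In neurons, 8 genes were higher and 48 lower. The higher count was 13 without the 6% of barcodes with most UMIs, 49 after thinning to 2000 UMIs, 4 with a pseudocount of 5 CPM, 3 at a mean of at least 20 CPM, 20 with no level floor, 21 in glutamatergic nuclei alone and 160 in neurons free of striatal marker UMIs. The lower count under these settings was 26, 91, 11, 10 and 149, and 144 without striatal markers. That last gate counted Pde10a, which cortical neurons hold, and kept 1204 ad lib and 842 vector neurons. Left without Pde10a, an alternative chosen after seeing the data, it gave 11 higher and 53 lower. Neurons with 0 vector UMIs, also added later, gave 6 and 46. In other nuclei, 237 genes were higher and 146 lower. The higher count was 363 at a minimum of 1000 genes per nucleus, 114 with a pseudocount of 5 CPM, 94 at 20 CPM, 467 with no floor and 149 when classes were weighted to their ad lib shares. Median-of-ratios scaling gave 190 and 188, and the gate of 5 UMIs 164 and 204, so the excess of higher genes did not hold there. The lower count was 42 with the pseudocount, 32 at 20 CPM and 578 with no floor. The neuron share of 47.7% and 52.6% became 55.2% and 60.2% at 1000 genes, 57.8% and 66.0% under 1% mitochondrial UMIs, 29.8% and 37.0% with a gate of 5 UMIs, 44.5% and 49.6% without the deepest barcodes, and 2.73% and 3.24% thinned. The vector library had the higher share in each, though the intervals of the thinned shares overlapped.

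Among named genes past 1.5-fold, 9 log2 ratios of 7 genes changed sign. In neurons Prr5l went to 0.089 and St18 to 0.26 after thinning, and without striatal markers Prr5l went to 0.64, St18 to 0.32, Mog to 0.017 and Aspa to 0.24. In strictly gated glia Abi3bp went to 0.0042, Npas4 to 0.63 and Spp1 to -0.20. Among list medians of at least 0.1 in size, 8 changed sign under 1 setting each. Without striatal markers, Pde10a among them, the neuron medians of the MHC class I, myelin and rapid immediate early lists went from -0.16, -0.39 and -0.18 to 0.05, 0.27 and 0.02. With no level floor that of reactive astrocyte genes in neurons went from -0.13 to 0.02. In strictly gated glia the heat shock, ribosomal and p53 medians went from 0.18, 0.15 and 0.11 to -0.01, -0.05 and -0.09. Thinning took the reactive astrocyte median in other nuclei from 0.28 to -0.01. The cause was not tested. Beyond the 9 reversed gene ratios, 5454 values, list medians included, stayed within their interval and 878 moved outside it. For genes this interval covers counting error. For list medians it is an interval of the median over the list's members. Depth limits the gated classes most, where several clock genes rest on fewer than 60 UMIs.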
